A study of Mus musculus with 53 samples.

Results

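RNA bound to tagged ribosomes of the Tie2 line, labelled endothelial, was compared with RNA bound to tagged ribosomes of the CAG line, labelled as all lineages, in the adult mouse heart. The comparison used 1 library from each side, Tie2 TRAP and CAG TRAP, and covered the genes at 1 RPKM or more in either library, a level that scales reads to transcript length and sequencing depth. These were 12440 of the 34306 genes in the deposited table. Of them, 8688 reached 1 RPKM in both libraries, 3239 in Tie2 TRAP alone and 513 in CAG TRAP alone. At the edge of the rule, Usp11 was the last gene inside with 1.00 RPKM in Tie2 TRAP and 0.472 in CAG TRAP, and Nr3c2 stood just below 1 RPKM in Tie2 TRAP with 0.449 in CAG TRAP.

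Translating ribosome affinity purification (TRAP) pulls down a tagged ribosomal protein together with the messenger RNA that the ribosomes carry. In the Tie2 line a Cre recombinase that the labels call endothelial-specific switched the tag on, and in the CAG line all lineages expressed it. Both groups were adult hearts without surgery, the labels of the series' first deposit give these lines a mixed 129/C57BL background, and the RNA of each library was pooled. The same table holds 4 further CAG TRAP libraries, 2 from sham-operated and 2 from aortic-banded hearts, and an input library, total cytoplasmic RNA, beside every TRAP library. Both sides of the comparison went through the same pulldown, whereas a comparison of TRAP with input does not share it. How many hearts were pooled, which chambers were taken and the sex of the unoperated mice were not given in the sources used here.

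Endothelial cells line every blood vessel, the lymphatics and, as endocardium, the inner face of the heart chambers. They control exchange of water, lipids and leukocytes between blood and muscle and signal through the VEGF, Tie, Notch and BMP pathways. Cardiomyocytes hold most of the RNA of the heart, and their transcripts code for the sarcomere, calcium handling and mitochondrial energy supply. The Tie2 gene, now named Tek, is also active in the lineage that gives rise to blood cells, and Tie2-Cre is known to mark haematopoietic cells and the cushion-derived cells of the valves beside endothelium.

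Igf2, Aqp1 and Gpr116 were the 3 genes of the pan-endothelial list with the highest ratio of Tie2 TRAP to CAG TRAP. Igf2 and Aqp1 are also markers given with the comparison, so their rank is not a separate result. The promoters of all 3 are shown to let the region upstream of such genes be read. Each line gives 250 bases before to 50 bases after an annotated start in RefSeq, build GRCm38.p6, 5′ to 3′ on the gene's strand. Capitals mark 3 forms of the core that ETS transcription factors such as Erg and Fli1 bind, found on either strand. One form is CAGGAAG. A different form reads CCGGAAG. The last of them is GAGGAAG, and the forms share their final bases. Igf2 has 4 windows in the RefSeq table and Gpr116, named Adgrf5 there, has 2, of which the first listed is printed.
Igf2, chr7:142666767-142667066, minus strand: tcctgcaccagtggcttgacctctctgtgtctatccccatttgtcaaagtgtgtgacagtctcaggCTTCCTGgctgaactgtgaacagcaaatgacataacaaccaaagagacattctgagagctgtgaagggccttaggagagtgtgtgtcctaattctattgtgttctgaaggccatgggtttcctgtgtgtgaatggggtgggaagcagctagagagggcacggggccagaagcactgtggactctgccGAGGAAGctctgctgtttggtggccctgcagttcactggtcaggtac
Aqp1, chr6:55336049-55336348, plus strand: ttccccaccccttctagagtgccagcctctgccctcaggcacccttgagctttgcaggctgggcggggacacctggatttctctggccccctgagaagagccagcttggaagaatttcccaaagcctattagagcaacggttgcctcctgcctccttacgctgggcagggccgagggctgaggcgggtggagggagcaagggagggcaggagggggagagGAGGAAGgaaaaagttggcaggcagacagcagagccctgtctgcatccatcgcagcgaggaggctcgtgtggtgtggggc
Gpr116, chr17:43360181-43360480, plus strand: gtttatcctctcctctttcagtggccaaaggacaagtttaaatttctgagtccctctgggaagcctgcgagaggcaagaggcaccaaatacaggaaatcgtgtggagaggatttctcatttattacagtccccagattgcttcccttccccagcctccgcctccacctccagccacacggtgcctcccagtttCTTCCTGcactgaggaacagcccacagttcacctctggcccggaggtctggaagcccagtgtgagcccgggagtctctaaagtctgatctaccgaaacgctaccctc
At least 1 of the 3 motifs stood in 31.5% of all 32851 windows of this length, in 37.4% of the 11367 windows of the compared genes that matched by symbol (8878 of 12440), and in 38.5% of the 1861 windows of genes 4-fold or more higher in Tie2 TRAP (1395 of 2011 matched). It stood in 28.2% of the 472 windows of genes 4-fold or more lower (383 of 531 matched). It stood in 14 of 28 windows of 20 matched pan-endothelial genes and in 4 of 30 windows of 24 matched cardiomyocyte genes. A match describes letters in the window and is not a binding site.

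The 12 libraries of the table held 26568988 to 94878619 reads, recovered from the RPKM values, with 38719997 in Tie2 TRAP and 94878619 in CAG TRAP. With 1 library a side there is no test over samples, so the ratios compare these 2 libraries. A gene was counted as higher or lower when log2((Tie2 TRAP + 1)/(CAG TRAP + 1)), with both values in RPKM, was 1 or more or -1 or less. By that rule 6031 of the 12440 genes (48.5%) were higher in Tie2 TRAP and 1324 (10.6%) were lower. The median log2 ratio of all 12440 genes was 0.97, a 1.95-fold difference, with 5% of the genes at or below -1.83 and 5% at or above 2.93. After that median was subtracted, 2094 genes (16.8%) were higher and 2767 (22.2%) lower, so the split of higher against lower genes depended on the scaling. The same rule separated 51 of 9957 genes (0.512%) between the 2 sham TRAP libraries, 365 of 10121 (3.61%) between the 2 band TRAP libraries and 396 of 11237 (3.52%) between Tie2 input and CAG input. Of all 12440 genes, 8513 (68.4%) lay above all 5 CAG TRAP libraries, operated ones included, and 2408 (19.4%) lay below all 5. Among the 6031 higher genes 5916 lay above all 5 and among the 1324 lower genes 1276 lay below, but both sets had been chosen with 1 of those 5 libraries.

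**Figure D1:**
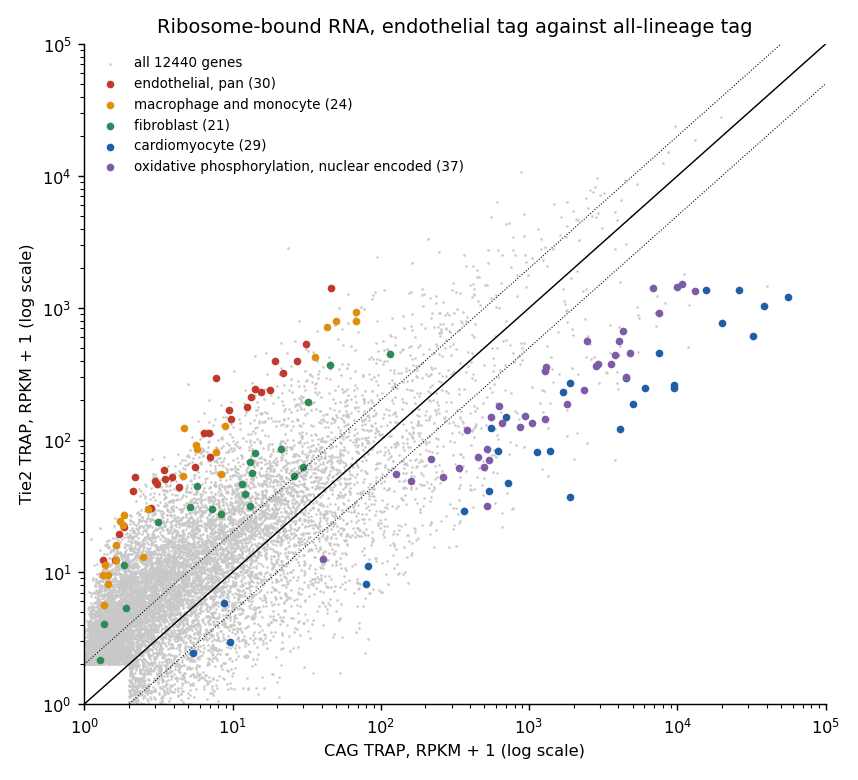
RPKM + 1 in CAG TRAP (x axis) against RPKM + 1 in Tie2 TRAP (y axis), both on log scales, for 12440 genes. The solid line marks equality and the dotted lines 2-fold. All 30 pan-endothelial and all 24 macrophage genes lie above the upper dotted line, and 28 of 29 cardiomyocyte genes and all 37 nuclear-encoded oxidative phosphorylation genes lie below the lower one.

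Transcripts of heart muscle cells took much of CAG TRAP. The 100 genes with the most reads took 49.6% of CAG TRAP and 30.3% of Tie2 TRAP. The gene with the most reads was Myl2, the ventricular myosin light chain, in CAG TRAP and Rps29, a small ribosomal subunit protein, in Tie2 TRAP. The cardiomyocyte list took 19.9% of the reads of CAG TRAP and 1.05% of those of Tie2 TRAP, and the pan-endothelial list 0.0805% and 1.69%. Values in RPKM are shares of a library, so a list that takes less of a library raises all other genes in it. In tissue RNA, more cells of a type and more RNA per cell cannot be told apart.

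All 30 pan-endothelial genes were higher in Tie2 TRAP, before and after subtraction of the overall median, and all 30 lay above the 5 CAG TRAP libraries, as did 68.4% of all genes. Their median log2 ratio was 3.89, from 2.94 to 5.25, beside 0.97 for all genes. Their median between Tie2 input and CAG input was 0.33. Igf2, at 5.25, and Aqp1 are markers given with the comparison, so their place among the 30 adds nothing to it. Igf2, which codes for an insulin-like growth factor, stood at 293 RPKM in Tie2 TRAP, 6.74 in CAG TRAP and 5.06 to 7.06 in the 4 operated CAG TRAP libraries. The ratio of its shares of all reads was 43.5-fold (95% interval 41.9 to 45.2), where this interval and those that follow are exact and cover counting error only. Every CAG TRAP library held less than 20.9 RPKM, the level of Igf2 in CAG input, and Tie2 TRAP held more than Tie2 input at 45.5.

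Aqp1, the water channel of the endothelial cell membrane, stood at 1408 RPKM in Tie2 TRAP against 45.3 in CAG TRAP and 46.9 to 78.6 in the operated CAG TRAP libraries. Its share of all reads was higher by 31.1-fold (95% interval 30.5 to 31.7). Pecam1, the CD31 adhesion molecule of the endothelial junction, followed with 398 RPKM against 18.3 and 16.4 to 19.7 in the operated libraries. In neither gene did the Tie2 TRAP value overlap the CAG TRAP values. In the pairs of values that follow, Tie2 TRAP comes first and CAG TRAP second, unless inputs are named. Gpr116, an adhesion receptor of the G protein family, stood at 51.5 against 1.18 RPKM, and Tek, the angiopoietin receptor from which the Cre driver takes its name, at 40.0 against 1.13. The lowest ratios of the list belonged to Pcdh12, a protocadherin (11.3 against 0.606 RPKM, log2 ratio 2.94), and to the adaptor She (11.4 against 0.331 RPKM, log2 ratio 3.22).

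Genes of each vessel type were mostly higher. For these and all later lists, the shares over all genes are 48.5% higher and 10.6% lower. After subtraction of the overall median, called centring below, they are 16.8% and 22.2%. In the capillary list 15 of 15 genes were higher (median log2 ratio 3.40). Ly6c1, a surface protein of capillary endothelium and monocytes, stood at 2421 against 92.6 RPKM, Timp4, an inhibitor of matrix metalloproteinases, at 545 against 20.1, and Car4, the carbonic anhydrase of the capillary surface, at 136 against 5.89. Cd36, a fatty acid carrier found on capillaries and on muscle cells, had the smallest ratio of the list with 83.3 against 21.8 RPKM (log2 ratio 1.88), and the operated CAG TRAP libraries held 36.5 to 133, so that it was not higher than in all of them. In the arterial list 17 of 18 genes were higher (median 3.35), among them the Notch target Hey1 (42.4 against 1.84 RPKM), the connexin Gja4 (99.8 against 6.94) and the Notch ligand Dll4 (30.1 against 1.59). After centring 14 capillary and 15 arterial genes were higher.

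In the venous list 11 of 12 genes were higher (median 2.48), and after centring 7 were higher and 1 lower. Plvap, which forms the diaphragms of fenestrae, stood at 226 against 20.5 RPKM, Vwf, von Willebrand factor, at 89.1 against 7.58, and Ephb4, the ephrin receptor of veins, at 86.5 against 7.42. Lrg1 went the other way with 45.2 against 84.0 RPKM. In the lymphatic list 6 of 7 genes were higher, led by Lyve1, a hyaluronan receptor that macrophages of the heart also carry, at 45.8 against 1.58 RPKM and by Flt4, the VEGF-C receptor, at 18.5 against 1.04. After centring 4 lymphatic genes were higher and 1 lower. Prox1, the factor that sets lymphatic identity and is also made by heart muscle cells, stood at 0.971 against 1.26 RPKM. In the endocardial list 7 of 8 genes were higher, among them Npr3, the natriuretic peptide clearance receptor (30.8 against 1.73 RPKM), and Cytl1 (365 against 23.7), whereas Gata4, which muscle cells also express, stood at 12.4 against 13.8. After centring 7 endocardial genes were higher and 1 lower.

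**Figure D2:**
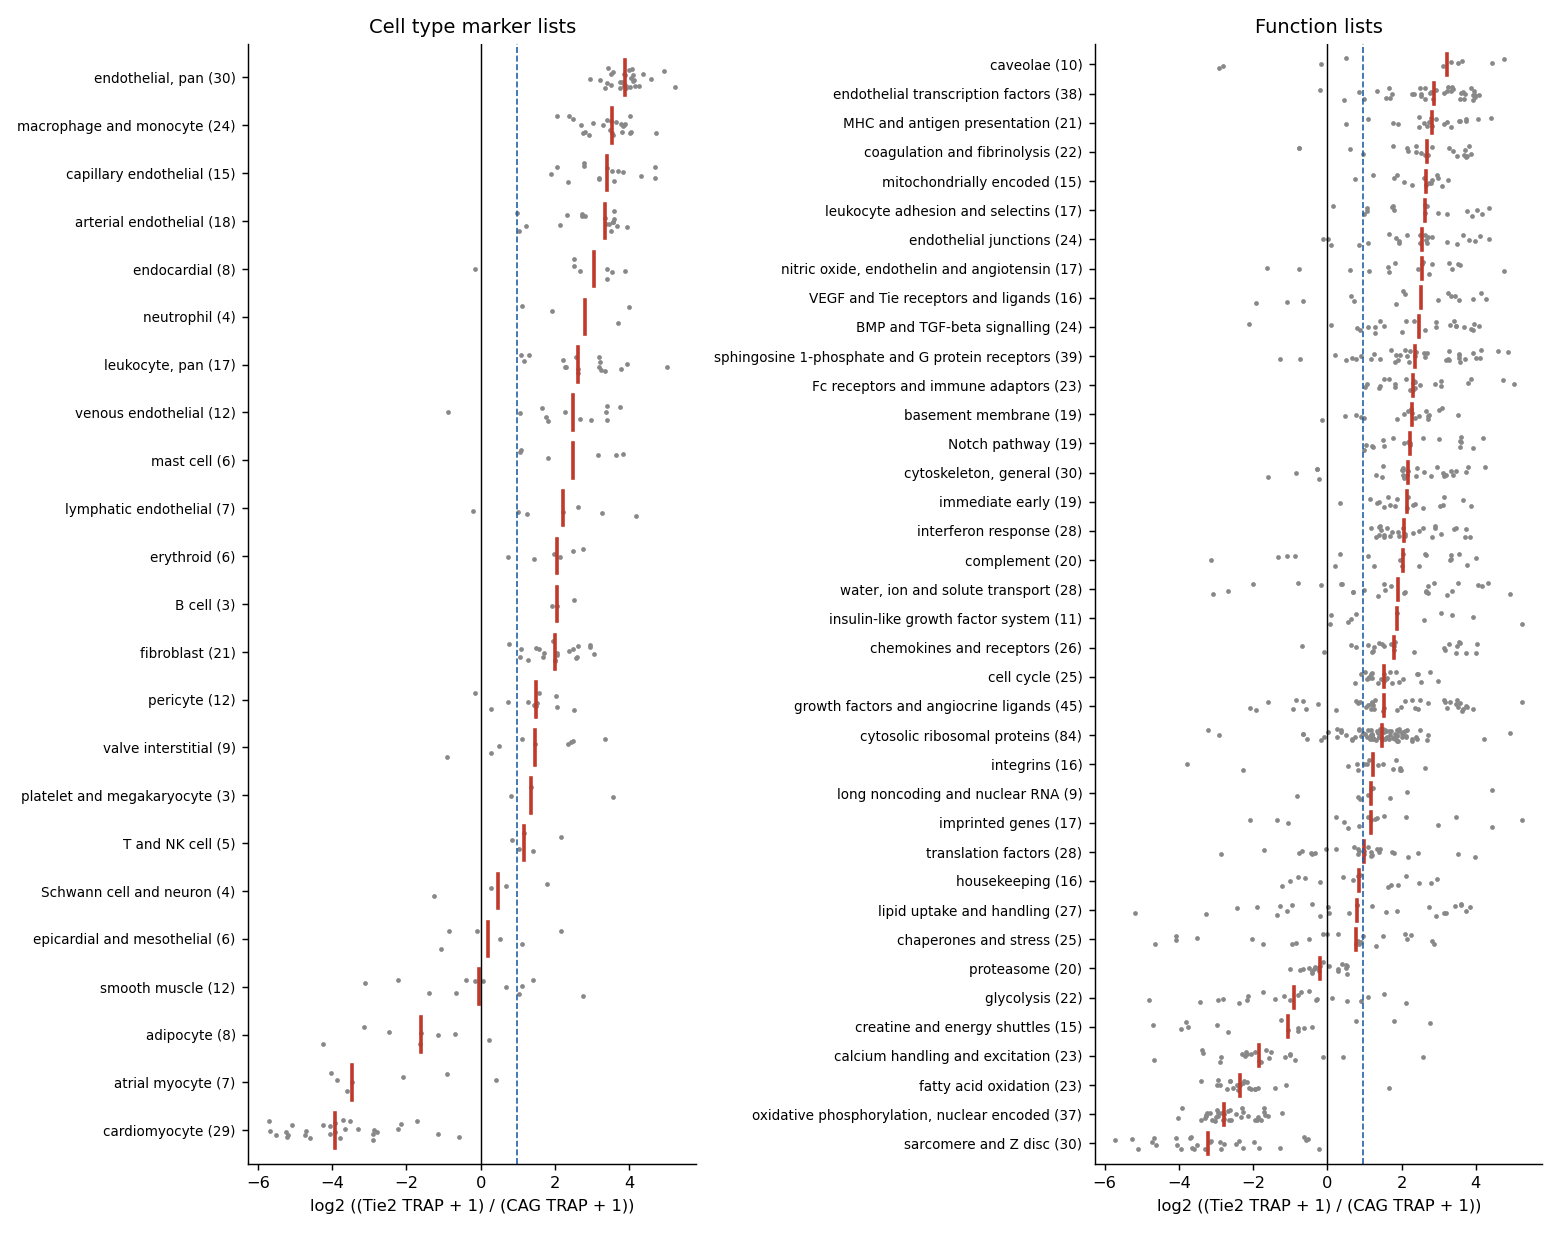
Log2 ratio of Tie2 TRAP to CAG TRAP (x axis, pseudocount 1 RPKM) for each gene (points) and the median (red bars) of 23 cell type lists on the left and 38 function lists on the right, with the number of genes in brackets. The solid line marks equality and the dashed line the median of all 12440 genes, 0.97. Medians ran from -3.93 in the cardiomyocyte list to 3.89 in the pan-endothelial list.

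Transcription factors of endothelium were higher in 34 of 38 cases, with none lower, and their median log2 ratio was 2.88. The highest ratios belonged to the SoxF factors Sox18 (532 against 30.2 RPKM) and Sox7 (38.2 against 1.49), the ETS factor Elk3 (62.7 against 3.07) and the BMP target Id1 (486 against 30.2). Gata6 and Prox1, both also made by heart muscle, had ratios of 0.44 and -0.20 on the log2 scale.

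In the VEGF and Tie pathways the receptors were high in Tie2 TRAP and ligands known from muscle cells were not. Receptors Flt1 (45.7 against 2.07 RPKM), Kdr (29.3 against 1.81) and Tie1 (167 against 8.51) and the phosphatase Ptprb (20.9 against 0.864), which acts on Tek, had log2 ratios from 3.43 to 4.14. Vegfb, a ligand of Flt1, stood at 123 against 472 RPKM and Vegfa, the main ligand of Kdr, at 8.72 against 14.3. Vegfb was thus lower by 3.84-fold (95% interval 3.74 to 3.94) in read share, while Vegfa stayed within 2-fold with a log2 ratio of -0.66. Of the 16 genes, 11 were higher and 2 lower, the other lower gene being Angptl4 (1.41 against 4.15 RPKM), whose inputs differed as well (0.919 against 4.83).

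The Notch list held 18 higher genes of 19 and none lower (median 2.22). Its highest ratios were those of Mfng, a fringe glycosyltransferase that modifies Notch (78.1 against 3.29 RPKM), and of the target Hey1, and its receptor of endothelium, Notch4, stood at 28.4 against 1.401. The BMP and TGF-beta list held 20 higher genes of 24 (median 2.48), including the co-receptor Eng (399 against 26.3 RPKM), the ligand Bmp6 (65.7 against 3.41) and the targets Id1, Id2 (40.0 against 1.42) and Id3 (773 against 59.0). The 1 lower gene, Bmp10, a ligand made by atrial muscle, stood at 1.47 against 9.56 RPKM.

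In the nitric oxide, endothelin and angiotensin list 14 of 17 genes were higher. Nos3, the endothelial nitric oxide synthase, stood at 26.6 against 1.38 RPKM, Ace, the angiotensin-converting enzyme, at 35.3 against 2.50, and Ednrb, the endothelin receptor of endothelium, at 14.3 against 0.579. Ednra, the endothelin receptor of muscle, stood at 1.77 against 3.75 RPKM and Agtr1a, the angiotensin II receptor, at 1.24 against 5.87, and of these only Agtr1a was past the limit on the log2(RPKM + 1) scale.

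Caveolae, the membrane pits of endothelium and muscle, showed both directions in 1 list. Cav1, the caveolin of endothelium, stood at 453 RPKM in Tie2 TRAP, 15.8 in CAG TRAP and 15.5 to 33.0 in the operated CAG TRAP libraries, and was higher by 28.6-fold (95% interval 27.7 to 29.5) in read share. Its inputs were nearly equal, with 22.99 RPKM for Tie2 and 22.3 for CAG. Cav3, the caveolin of muscle, stood at 15.5 RPKM in Tie2 TRAP, 122 in CAG TRAP and 135 to 186 in the operated libraries, lower by 7.92-fold (95% interval 7.34 to 8.56). Cav2 (73.8 against 2.48 RPKM), which pairs with Cav1, was higher, and Murc (1.01 against 13.2), the cavin of muscle, was lower.

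**Figure D3:**
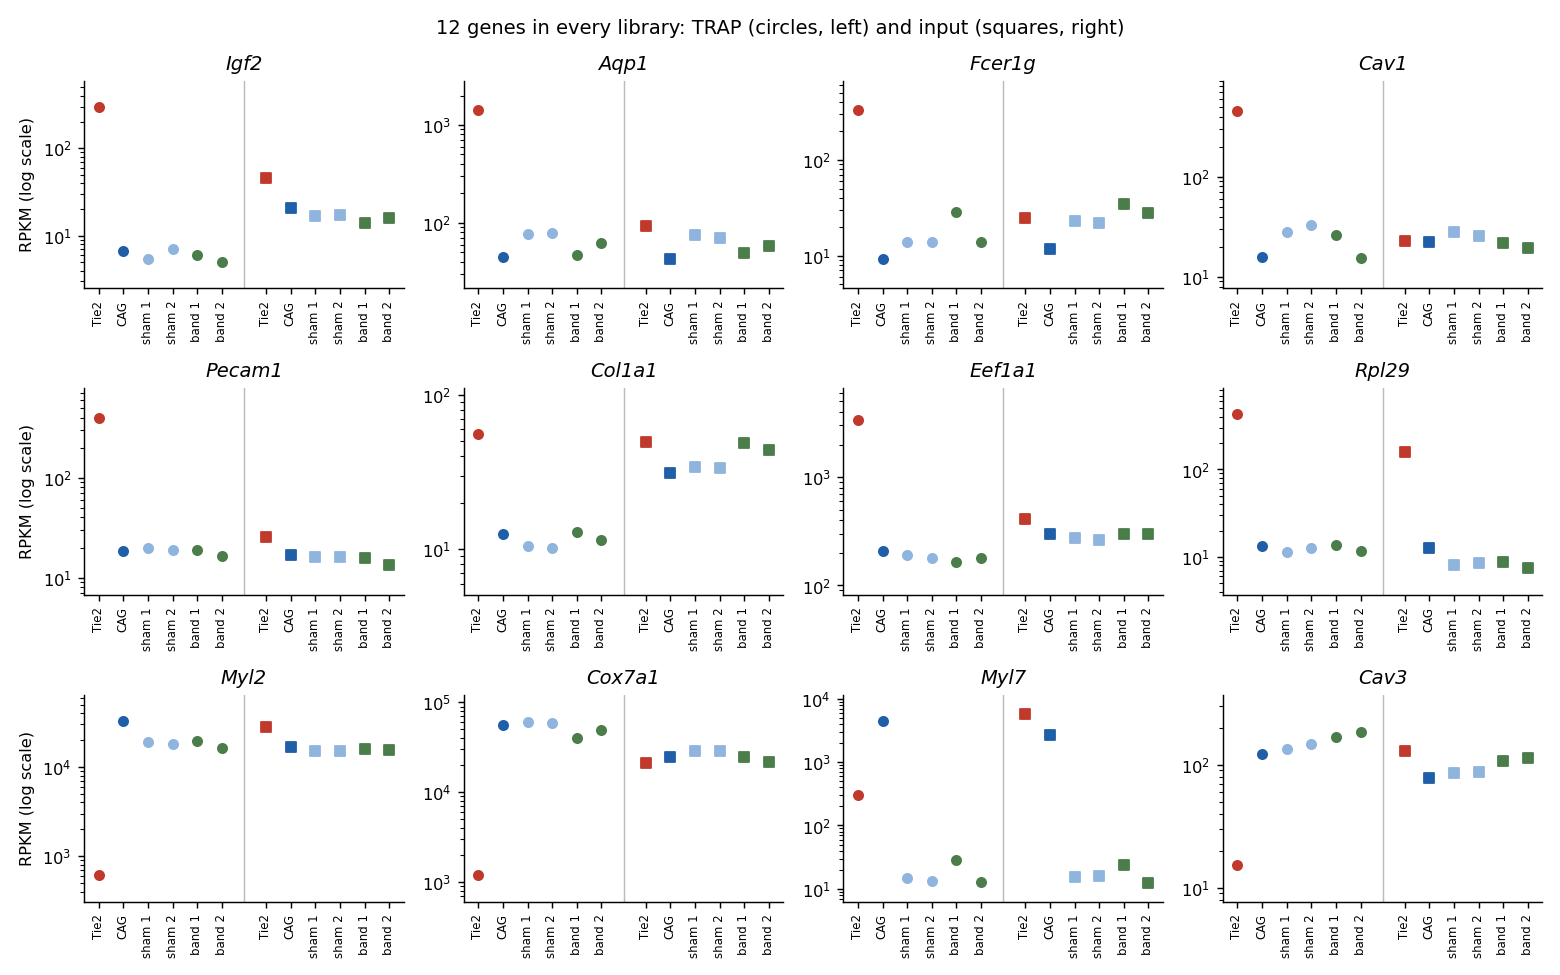
RPKM on log scales (y axes, which differ between genes) of 12 genes in every library (x axes), with TRAP libraries as circles on the left of each panel and inputs as squares on the right. Tie2 is red, unoperated CAG dark blue, sham light blue and band green. In 8 panels Tie2 TRAP lies above every CAG TRAP library, Myl2, Cox7a1 and Cav3 lie below every one, and Myl7 lies below unoperated CAG TRAP and above the 4 operated libraries.

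Receptors coupled to G proteins and their ligands were higher in 32 of 39 cases (median 2.36). S1pr1, the sphingosine 1-phosphate receptor that stabilises vessels, stood at 202 RPKM against 5.92 in CAG TRAP and 6.98 to 11.8 in the operated libraries, or 34.1-fold (95% interval 32.4 to 35.8) higher in read share. Spns2, the exporter of its ligand, stood at 44.0 against 1.60 RPKM and Ramp2, the partner of the adrenomedullin receptor, at 743 against 48.2. Adrenergic receptors known from muscle did not follow: Adrb1 stood at 3.82 against 3.15 RPKM and Adra1b at 3.23 against 9.25.

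Among 24 junction genes 20 were higher (median 2.56), with Cdh5, VE-cadherin, at 209.8 against 12.3 RPKM, Esam at 243 against 13.2 and the tight junction claudin Cldn5 at 176 against 11.6. Gja1, the main connexin of ventricular muscle, stood at 17.6 against 19.3 RPKM. The coagulation list held 18 higher genes of 22 and none lower past 2-fold, including the clot-limiting Thbd, thrombomodulin (38.6 against 1.96 RPKM), and the ectonucleotidase Entpd1 (38.3 against 1.79), while F3, tissue factor, stood at 0.964 against 2.31. Basement membrane genes were higher in 14 of 19 cases, among them Sparcl1 (287 against 24.0 RPKM) and the type IV collagen Col4a1 (139.8 against 21.4). In the integrin list 10 of 16 were higher and 2 lower, Itga7, the laminin receptor of muscle (4.64 against 26.1 RPKM), and the muscle binding partner Itgb1bp2 (7.06 against 110.3). Of all genes 48.5% were higher and 10.6% lower. After centring 2 integrin genes were higher and 2 lower, beside 16.8% and 22.2% of all genes.

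Of 28 transport genes, 18 were higher and 3 lower, beside 48.5% and 10.6% of all genes. After centring 14 were higher and 5 lower, beside 16.8% and 22.2% of all genes. The 3 lower before centring were Slc2a4, the insulin-responsive glucose transporter (19.3 against 169 RPKM), Slc25a4, the ATP/ADP carrier of muscle mitochondria (409 against 2597), and Slc16a1, a lactate transporter (2.02 against 11.1). In the lipid list 12 of 27 were higher and 7 lower (median 0.80, below that of all genes). Gpihbp1, which carries lipoprotein lipase to the capillary surface, stood at 1256 against 87.0 RPKM, and Lpl itself, made by muscle and fat cells, at 129 against 174. Fabp4, the fatty acid binding protein of capillaries and fat cells, stood at 10759.6 RPKM in Tie2 TRAP, 887 in CAG TRAP and 785 to 1603 in the operated libraries, and Fabp3, that of heart muscle, at 260.0, 9499.9 and 8159.7 to 12418. The libraries did not overlap for either gene, and the order was opposite.

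Secreted growth factors were higher in 33 of 45 cases and lower in 3, after centring in 21 and 8. Beside Igf2 and Bmp6, the semaphorin Sema7a (84.1 against 5.28 RPKM) and the chemokine Cxcl12 (79.5 against 5.05) had high ratios, and Fgf16, a fibroblast growth factor of heart muscle (1.05 against 7.73), Vegfb and Fgf1 (4.51 against 15.8) were lower. In the insulin-like growth factor system 6 of 11 genes were higher and none lower, with 48.5% higher among all genes, and 5 were higher after centring. The binding proteins Igfbp3 (74.5 against 3.97 RPKM), Igfbp4 (189.6 against 17.7) and Igfbp7 (792 against 93.0) were higher, as was Igf2, whereas the receptors Igf1r (1.798 against 0.64), Igf2r (13.3 against 8.62) and Insr (1.16 against 1.02) did not pass the limit on the log2(RPKM + 1) scale.

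Igf2 is an imprinted gene, expressed from the paternal copy, and shares its locus with the maternally expressed RNA H19. H19 stood at 182 RPKM in Tie2 TRAP, 7.38 in CAG TRAP and 2.73 to 6.46 in the operated CAG TRAP libraries. Its inputs also differed, with 228 RPKM in Tie2 and 77.1 in CAG, as did those of Igf2. Of 17 imprinted genes 10 were higher and 3 lower (median 1.17, beside 0.97 for all genes, of which 48.5% were higher and 10.6% lower). After centring 5 were higher and 3 lower. Mest (17.2 against 0.649 RPKM) and Cdkn1c (55.5 against 6.18), a brake on the cell cycle, were among the higher ones, and Snrpn (21.6 against 94.96), Nnat (0.41 against 2.63) and Ddc (0.292 against 1.69) were the lower ones.

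Markers of blood cells were also high in Tie2 TRAP. All 17 pan-leukocyte genes (median log2 ratio 2.63) and all 24 macrophage and monocyte genes (median 3.53) were higher, and the macrophage list took 0.562% of Tie2 TRAP reads and 0.0367% of CAG TRAP reads. Fcer1g, the signalling chain shared by Fc receptors, stood at 331 RPKM in Tie2 TRAP, 9.19 in CAG TRAP and 13.7 to 28.6 in the operated libraries, or 36.03-fold (95% interval 33.1 to 39.2) higher in read share. Fcer1g is also a marker given with the comparison, so its ratio adds nothing to these lists. Fcgr3, a low-affinity IgG receptor, stood at 122 against 3.68 RPKM, Lyz2, the lysozyme of macrophages, at 719 against 42.5, and Csf1r, the receptor on which macrophages depend, at 84.3 against 4.73. The library labelled endothelial-specific thus held blood cell markers beside the endothelial ones, and the part of blood cells in each result for genes shared by both, such as Ly6c1 and Lyve1, was not tested.

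Lymphocyte genes were mostly below 1 RPKM. Of 16 T and NK cell genes only 5 reached 1 RPKM in either library, with the largest ratio for Cd247 (3.93 against 0.0971 RPKM). The T cell receptor component Cd3e stood at 0.54 against 0.183 RPKM. Of 11 B cell genes 3 reached 1 RPKM, with Cd79b at 4.01 against 0.214. Mast cell genes were higher in 6 of 6 cases, led by the proteases Tpsb2 (35.5 against 1.58 RPKM) and Cma1 (27.6 against 1.30), and the neutrophil genes S100a8 (16.7 against 0.108) and S100a9 (25.8 against 1.06) were higher too, S100a9 also in input (27.3 against 5.08). The globin Hbb-b1 stood at 245 against 35.3 RPKM, with reads that its near-identical neighbour Hbb-b2 may share.

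Genes of immune function were higher as well. Of 21 antigen presentation genes 20 were higher (median 2.83), of 28 interferon response genes all 28 (median 2.06) and of 23 Fc receptor and adaptor genes all 23 (median 2.31). After the overall median was subtracted these counts were 17, 15 and 15. H2-D1, a class I molecule, stood at 1267 against 58.9 RPKM and the class II chain H2-Aa at 353 against 20.4, and both belong to families of close copies between which reads may be split. The chemokine list held 22 higher genes of 26, among them Ccl6 (82.7 against 4.14 RPKM) and Ccl9 (24.6 against 0.603). In the complement list 14 of 20 were higher, with C1qa at 927 against 67.0 RPKM. Cfd, adipsin of fat cells (10.7 against 101), Clu (158 against 399) and C3 (6.28 against 14.3) were lower. After centring 11 chemokine genes were higher and 2 lower, and 11 complement genes higher and 4 lower. Of all genes 48.5% were higher before centring and 16.8% after.

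Mesenchymal markers were higher than in CAG TRAP as well, by less. Of 21 fibroblast genes 20 were higher (median 2.00), 12 after centring. Dcn, decorin, stood at 372 against 44.3 RPKM, and Col1a1, the main fibrillar collagen chain, at 55.6 in Tie2 TRAP, 12.5 in CAG TRAP and 10.2 to 13.02 in the operated libraries. In the inputs Col1a1 stood at 49.9 RPKM for Tie2 and 31.3 for CAG, so Tie2 TRAP was near its own input and CAG TRAP below its own. Over the list the median log2 ratio of TRAP to input was 0.69 in Tie2 and -0.96 in CAG hearts, where the pan-endothelial list gave 3.29 and -0.36 and the macrophage list 2.63 and -0.57. The median log2 ratio of Tie2 TRAP to its input was 0.61 over all 12697 genes at 1 RPKM or more in either. The fibroblast 0.69 was close to it. The fibroblast ratio against CAG TRAP thus combines a level near that of all genes in Tie2 TRAP with one below input in CAG TRAP. No median over all genes of CAG TRAP to its input was taken, so these levels have unlike references. Whether tagged cells or carry-over gave these transcripts was not tested.

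Some valve genes were among the higher ones. Of 9 valve interstitial genes 6 were higher and none lower past 2-fold, beside 48.5% and 10.6% of all genes. After centring 4 were higher and 1 lower, and the list median was 1.46 beside 0.97 for all genes. Comp, a cartilage matrix protein of valves and tendon, stood at 68.8 RPKM in Tie2 TRAP, 5.88 in CAG TRAP and 0.337 to 0.92 in the operated CAG TRAP libraries, and Fmod at 19.7, 2.69 and 0.121 to 0.284. Sox9, a factor of valve mesenchyme, stood at 1.12 against 0.505 RPKM. Pericyte genes were higher in 9 of 12 cases and in 3 after centring, with Rgs5 at 35.2 against 11.1 RPKM and Pdgfrb at 12.7 against 3.94. Smooth muscle genes had a median of -0.05, with 4 higher, 3 lower and, for the contractile genes Acta2 (79.6 against 106 RPKM) and Myh11 (3.22 against 1.64), values within 2-fold.

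Cardiomyocyte genes were lower in 28 of 29 cases, Nexn (4.87 against 7.74 RPKM, with 11.97 to 137 in the operated libraries) being the exception, and all 29 lay below the 5 CAG TRAP libraries, as did 19.4% of all genes. Their median log2 ratio was -3.93, while that between the inputs was -0.01. Myl2 stood at 618 RPKM in Tie2 TRAP, 32371 in CAG TRAP and 16126 to 19561 in the operated libraries, lower by 52.4-fold (95% interval 51.7 to 53.1) in read share. Tnnc1, cardiac troponin C, stood at 249 against 9519 RPKM, Mb, myoglobin, at 768 against 19907, and Nppb, the natriuretic peptide of strained muscle, at 36.04 against 1879.7. Muscle transcripts were thus lower and still present, and in RPKM Myl2 in Tie2 TRAP remained above Pecam1 in the same library. Among the smaller ratios of the list were Ryr2, the calcium release channel, at 1.45 against 4.43 RPKM (log2 ratio -1.15) and Xirp1 at 1.96 against 8.66 (-1.71).

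The log2 ratio was greater by 0.36 for each doubling of transcript length over 6158 genes of 500 bases or more and a mean of 5 RPKM or more. Against the 4 operated CAG TRAP libraries the slope was 0.25 to 0.28, for CAG TRAP against sham TRAP 1 it was -0.10, and between the sham TRAP libraries or the inputs it was -0.01 and -0.02. Its part in the ratios of short and long muscle transcripts was not tested beyond the removal of the trend, after which 6077 genes were higher and 1227 lower.

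Genes of muscle machinery were mostly lower too. The sarcomere and calcium lists share members with the cardiomyocyte list, among them Csrp3, Tcap and Atp2a2, so their direction is not separate from that list. Of 30 sarcomere and Z disc genes 26 were lower and none higher (median -3.23), with Csrp3, a Z disc sensor, at 119.9 against 4119 RPKM and Tcap, the titin cap, at 186 against 4986. In calcium handling and excitation 18 of 23 were lower (median -1.85). Hrc, a calcium binding protein of the sarcoplasmic reticulum, stood at 29.7 against 781 RPKM and the pump Atp2a2 at 123 against 552.

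All 37 nuclear-encoded oxidative phosphorylation genes were lower, from -4.04 to -1.21 on the log2 scale (median -2.78). The list took 8.84% of CAG TRAP reads and 1.34% of Tie2 TRAP reads. Cycs, cytochrome c, stood at 30.9 against 522 RPKM, and the muscle form of a cytochrome oxidase subunit, Cox7a1, at 1215 in Tie2 TRAP, 55599 in CAG TRAP and 40043 to 61088 in the operated libraries. Cox7a1 inputs stood at 21337 and 24840.4 RPKM. Fatty acid oxidation genes were lower in 22 of 23 cases (median -2.34), Etfb (169 against 1809 RPKM) by the most, and Cpt1a (6.82 against 1.46), the liver-type carnitine palmitoyltransferase, was the 1 higher gene.

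Glycolysis genes were lower in 11 of 22 cases and higher in 3. Ldhb, the lactate dehydrogenase of heart muscle, stood at 55.5 against 606 RPKM and Pfkm, the muscle phosphofructokinase, at 20.6 against 166, whereas Pfkfb3, which drives glycolysis in endothelium, stood at 5.596 against 0.505 and Hk3, a hexokinase of myeloid cells, at 2.46 against 0.203. Energy shuttles were lower in 8 of 15 cases, with Ckmt2, mitochondrial creatine kinase, at 46.3 against 719 RPKM, and 2 genes of creatine synthesis, Gatm (9.60 against 0.551) and Gamt (32.7 against 8.67), were higher.

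Some related genes of the same family lay on opposite sides. The 16 pairs plotted here were chosen after their values were seen, and no count over them is a result. The elongation factor Eef1a1 stood at 3337 against 209 RPKM and its muscle form Eef1a2 at 76.6 against 559.9. The ribosomal protein Rpl3 stood at 210.1 against 38.4 RPKM and its muscle form Rpl3l at 22.7 against 219. Tropomyosin Tpm4 stood at 131 against 8.84 RPKM and Tpm1, the sarcomeric form, at 271 against 1877. For Eef1a1 and Rpl3 the order of the forms turned between the libraries, on the RPKM scale, which is per length. Tpm1 was above Tpm4 in both.

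**Figure D4:**
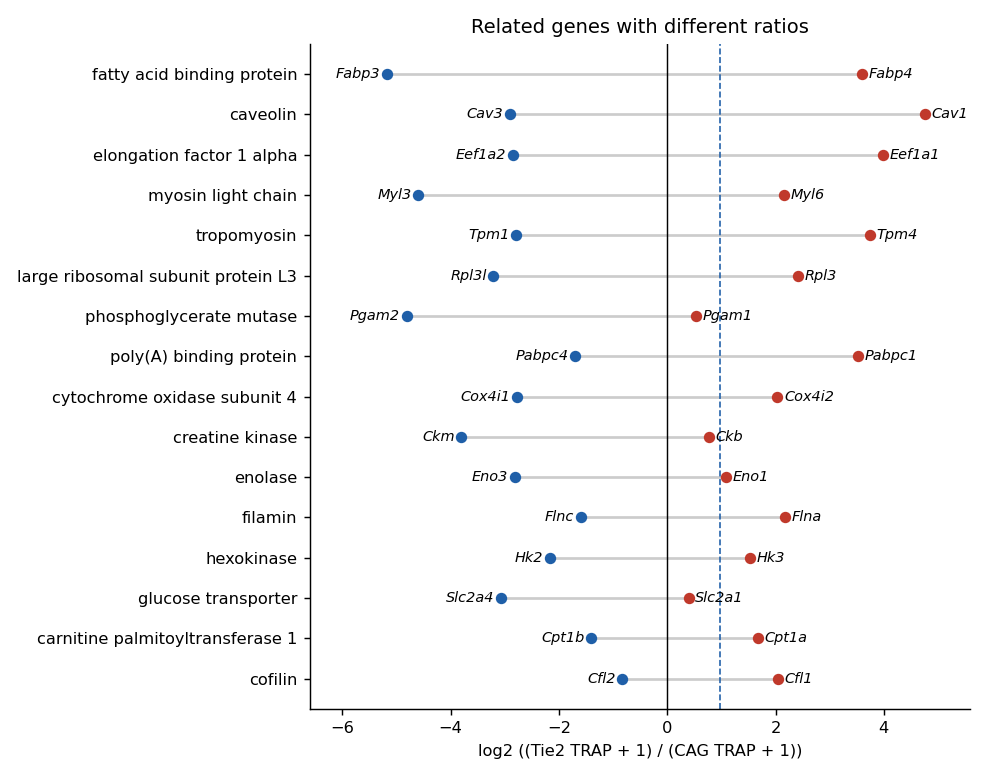
Log2 ratio of Tie2 TRAP to CAG TRAP (x axis, pseudocount 1 RPKM) of both genes of 16 related pairs (rows), which were chosen after their values were seen. The solid line marks equality and the dashed line the median of all 12440 genes, 0.97. The gap runs from Fabp3 at -5.19 to Fabp4 at 3.60 in the top row.

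Transcripts of the translation machinery took more of Tie2 TRAP. Cytosolic ribosomal protein genes took 16.5% of its reads and 7.37% of those of CAG TRAP. Of 84 at 1 RPKM or more, 64 were higher and 2 lower, beside 48.5% and 10.6% of all genes. After centring 17 were higher and 7 lower, beside 16.8% and 22.2% of all genes. Many of these genes have processed pseudogenes of near-identical sequence, so their reads may be split. Rpl29 (429 against 13.2 RPKM) and Rps2 (316 against 16.1) were the highest and Rpl3l and Rpl26 (60.6 against 461) the lowest. The inputs of Rpl29 (160.4 against 12.8), Rps2 (198 against 35.5) and Rpl26 (34.8 against 322) differed in the same direction, so for these 3 a difference was present without the pulldown. Whether the hearts or the assignment of reads gave it was not tested. Rpl10a, the protein usually tagged in TRAP, stood at 29.0 against 9.11 RPKM, with inputs at 10.4 and 11.4.

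Translation factors had a median of 1.00, close to that of all genes and below 0 at -0.31 after trimmed mean scaling. Of 28, 15 were higher and 2 lower, beside 48.5% and 10.6% of all genes. After centring 4 were higher and 8 lower, beside 16.8% and 22.2% of all genes. General cytoskeleton genes were higher in 25 of 30 cases, led by Vim, vimentin (998 against 51.6 RPKM), and Tmsb4x, thymosin beta 4 (6377 against 604). Flnc, the filamin of muscle (2.43 against 9.37 RPKM), was lower. Proteasome genes stayed within 2-fold in all but 1 of 20 cases (median -0.21), which placed them below the median of all genes.

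Immediate early genes were higher in 18 of 19 cases (median 2.13), 10 after centring, with Klf2, a factor that responds to blood flow (241 against 15.5 RPKM), and Ier2 (67.9 against 6.72) among the highest. Sgk1, a kinase that is quickly induced in many cells, stood at 71.2 against 1.85 RPKM. Cell cycle genes were higher in 23 of 25 cases and in 6 after centring, with Ccnd1, cyclin D1, at 20.1 against 2.09 RPKM and Top2a, a marker of dividing cells, at 1.25 against 0.194. Of all genes 48.5% were higher, and 16.8% after centring. The cell cycle median was 1.54, beside 0.97 for all genes. Chaperones split, with the small heat shock proteins of muscle Cryab (106 against 1811 RPKM) and Hspb6 (52.5 against 1333) lower and Hmox1, haem oxygenase 1 (22.8 against 2.25), and Pdia3 (54.2 against 6.88) higher.

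In 3 lists with a median past 2-fold the direction depended on which CAG TRAP library stood in the comparison. The 7 atrial genes had a median of -3.47 against unoperated CAG TRAP and of 3.10 and 3.22 against the sham and 2.82 and 3.49 against the band TRAP libraries. Myl7, the atrial myosin light chain, stood at 309 RPKM in Tie2 TRAP, 4549 in CAG TRAP and 13 to 28.8 in the operated TRAP libraries. Its inputs stood at 5867 RPKM for Tie2 and 2724 for CAG, so both unoperated hearts held Myl7, which the operated TRAP libraries nearly lacked. Nppa, the atrial natriuretic peptide, stood at 242 against 3973 RPKM and Sln, sarcolipin, at 268 against 2971. The operated TRAP libraries did not lack Nppa. Its log2 ratio was 0.41 and 0.54 against sham TRAP 1 and 2 and 0.32 against band TRAP 1. Against band TRAP 2 it did not change sign. Bmp10, named above as lower, held 0 to 0.0545 RPKM in the operated TRAP libraries, and Nnat held 0.102 to 0.293. The 8 fat cell genes had a median of -1.61, and of 1.43, 1.18, 1.35 and 1.47 against the 2 sham and 2 band libraries. Cfd held 1.46 to 2.66 RPKM and C3 4.03 to 4.67 in the operated TRAP libraries, below Tie2 TRAP. The pan-endothelial and cardiomyocyte medians kept their direction against all 5, from 3.45 to 3.89 and from -4.22 to -3.93.

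**Figure D5:**
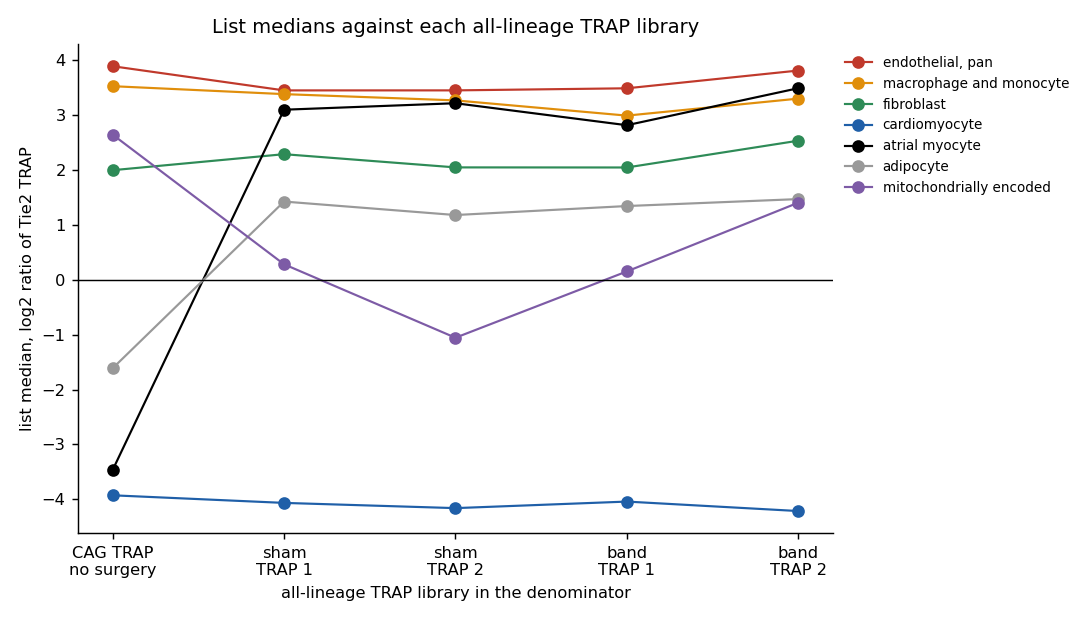
Median log2 ratio (y axis, pseudocount 1 RPKM) of 7 lists for Tie2 TRAP against each of the 5 all-lineage TRAP libraries (x axis). Lines join points of the same list and stand for no order. The atrial list goes from -3.47 against unoperated CAG TRAP to between 2.82 and 3.49 against the operated libraries, while the pan-endothelial and cardiomyocyte lists stay on their side of 0.

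The third such list was the mitochondrial genome. Its 15 genes had a median of 2.65 against CAG TRAP, and of 0.28, -1.06, 0.15 and 1.41 against the 2 sham and 2 band libraries. These transcripts are translated on ribosomes inside mitochondria, which do not contain the cytosolic ribosomal proteins. They took 0.182% of Tie2 TRAP reads and 0.0258% of CAG TRAP reads, against 3.17% and 14.2% of the inputs. Both pulldowns thus held far fewer of them than input did, and CAG TRAP the fewest of this pair. The nuclear RNAs Malat1 (14.1 against 7.22 RPKM in TRAP, 352 against 347 in the inputs) and Neat1 (3.53 against 0.939 in TRAP, 16.8 against 21.6 in the inputs) were likewise far lower in both pulldowns than in input.

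Among 2441 genes higher in Tie2 TRAP and at 10 RPKM or more, 30 (1.23%) were also 2-fold or more higher in Tie2 input than in CAG input, and among 739 lower ones 16 (2.17%) were lower in input. These shares lay near those of all 11237 genes compared between the inputs, of which 1.42% were higher and 2.10% lower in Tie2 input. The 30 included Igf2, Aqp1 (92.3 against 43.2 RPKM in the inputs), H19 and H2-D1 (169 against 68.4), for which the difference between the fractions was larger than that between the inputs. The 16 included Acta1, skeletal actin (28.9 against 762 RPKM in TRAP, 319 against 1062 in the inputs), and Meig1 (0.732 against 33.8 in TRAP, 4.93 against 29.5 in the inputs). Among the named genes at 10 RPKM or more and past 2-fold whose inputs differed in the same direction, mitochondrially encoded genes left out, those furthest from their own input ratio were Cox7a1, Csrp3, Nppb, Pgam2 (70.8 against 2017 RPKM in TRAP) and Cav1.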

How the data were processed

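Messenger RNA of adult mouse hearts was sequenced as input and TRAP fractions. The authors deposited RPKM values for 34306 genes in 12 libraries, and 0 columns belonged to other samples. As a set the columns match the later of the series' deposits, whose titles end in l1 or l2 with no meaning given. Per the submitters' processing notes, CASAVA 1.8.2, TopHat 1.4, HTSeq 0.5.3 and build NCBIM37 were used. Per the labels' protocols, RNA was pooled, poly(A)-selected, primed with random hexamers and prepared without marking strand, so overlapping or antisense genes cannot be separated.

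RPKM as deposited were compared as log2(value + 1). A fold on this scale understates the change of low genes. Reads were recovered from the steps of the RPKM values, and 233410 of 233410 positive values were whole within 0.02 read. They gave the exact 95% intervals of fold changes and the depth. Of the 34306 symbols, 25 have the form of a date. The comparison covered genes at 1 RPKM or more in either library, and 2-fold was the limit for a call.

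The genes and 61 lists were chosen with earlier results of these data known. Of 1230 list entries 1212 were found. Genes were named by rule: the 20 highest and 20 lowest ratios among 4688 genes at 10 RPKM or more (860 unnamed models left out), the 3 markers given with the comparison, Rpl10a, the genes at the threshold, of those past 2-fold with inputs in the same direction the 5 furthest from their input ratio, and, of each list, all members up to 12, or else the 5 highest, 5 lowest, 4 most abundant and any opposite ones. Col1a1, Lpl and the related pairs were chosen after their values were seen. The scripts were tested on simulated data and run with Python 3.11.15, numpy 2.4.6, pandas 2.3.3 and scipy 1.17.1. Alternatives changed the pseudocount, minimum, scaling, length trend and comparator library. The values of 1 list gene are not reported here.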

Additional observations from a re-analysis of the deposited data

How the results depend on the processing

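No paired analysis was possible because each side holds 1 library, and for the same reason no replicate could be left out and no test was run. The counts of 6031 higher and 1324 lower genes became 2928 and 856 with a pseudocount of 5 RPKM, 1710 and 2784 under trimmed mean scaling, whose scaling factor was 1.33 on the log2 scale, and 2094 and 2767 with the median of all genes set to 0. They stayed within 1.5 times the reported counts under the other alternatives, which were a pseudocount of 0.1, a minimum of 5 RPKM, no minimum, rescaling without the most abundant genes, removal of the length trend, each operated CAG TRAP library as comparator and division by the input ratio. The median log2 ratio of 0.97 was 1.34 with a pseudocount of 0.1, 0.45 with 5, 1.12 from 5 RPKM, 0.27 with no minimum, 0.034 under trimmed mean scaling, 0 after centring by construction, 0.62 without the most abundant genes, 0.84 and 0.79 against the sham and 0.76 and 0.88 against the band TRAP libraries, and 0.91 after division by the input ratio.

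Direction here means the sign of the log2 ratio alone, which another pseudocount or minimum cannot turn for a single gene. Some list medians kept their sign but fell within 2-fold. Their lowest values included 0.14 for cytosolic ribosomal proteins and 0.18 for imprinted genes. Of 53 lists with a median past 2-fold, 49 kept their direction under every alternative, and of 161 named genes past 2-fold, 149 did. Those that changed sign against sham TRAP 1, sham TRAP 2, band TRAP 1 and band TRAP 2, in that order, were the atrial list (3.10, 3.22, 2.82 and 3.49), the adipocyte list (1.43, 1.18, 1.35 and 1.47), Myl7 (4.30, 4.44, 3.38 and 4.47), Sln (5.15, 5.19, 3.52 and 4.81), Bmp10 (1.30, 1.23, 1.30 and 1.26), Cfd (1.67, 1.73, 1.75 and 2.25), C3 (0.36, 0.49, 0.53 and 0.49) and Nnat (0.13, 0.20, 0.19 and 0.36), and, in the first 3 of these, Nppa (0.41, 0.54 and 0.32). The atrial list took a larger share of reads in the unoperated than in the operated inputs, and the cause of these changes of sign was not tested. Cd36 was at -0.46 against sham TRAP 2 and -0.67 against band TRAP 1, Gapdh at 0.15 and 0.13 against sham TRAP 1 and 2, Neat1 at -0.021 against band TRAP 1, the mitochondrially encoded list at -1.06 against sham TRAP 2, and the translation factor list at -0.31 under trimmed mean scaling. After division by the input ratio Angptl4 was at 0.51 and Rpl26 at 0.27. Depth limits genes near or below 1 RPKM, several of the named ones included.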

Other observations

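Several genes stood out that no paragraph above describes, and they were chosen after their values were seen. Eln, elastin of the great vessels and valves, stood at 137 RPKM in Tie2 TRAP, 8.61 in CAG TRAP and 7.97 to 8.81 in the operated CAG TRAP libraries, with 53.1 against 12.9 in the inputs. Cyp26b1, an enzyme that breaks down retinoic acid, stood at 20.4 against 0.274 RPKM in TRAP and 1.86 against 0.159 in the inputs, and its operated CAG TRAP libraries (0.745 to 1.79) were above the unoperated one. Tesc, a calcineurin-related regulator of a proton exchanger, stood at 20.9 against 659 RPKM and Ptgds, prostaglandin D synthase, at 14.9 against 322, both among the 20 lowest ratios.

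Genes often used to scale samples did not move together. In the housekeeping list 7 of 16 were higher and 2 lower, beside 48.5% and 10.6% of all genes. Gapdh stood at 22.6 against 46.5 RPKM and Gusb, a lysosomal enzyme, at 39.2 against 4.22, and Gapdh has many near-identical pseudogenes that may take its reads. Leukocyte adhesion genes were higher in 15 of 17 cases (median 2.63). Platelet genes were higher in 2 of 3, erythroid genes in 5 of 6 and long noncoding RNAs in 6 of 9. Epicardial genes were higher in 2 of 6 and Schwann cell genes in 1 of 4. After centring these counts were 1, 4, 2, 1 and 0, where 16.8% of all genes were higher.

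The Y-linked gene Ddx3y, also chosen after its values were seen, stood at 0.283 RPKM in Tie2 input and 0.0487 in CAG input, and at 2.69 to 3.46 in the 4 operated inputs. Its values in TRAP were 0.15 against 0 for Tie2 and CAG and 0.915 to 2.85 in the operated libraries. The unoperated hearts were thus below the operated ones, which the protocols describe as male, and the part of sex in the ratios above was not tested.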
